A study of Mus musculus with 30 samples.

Results

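The 9 genes of insulin signalling and glucose uptake, *Insr*, *Irs1*, *Irs2*, *Pik3r1*, *Akt1*, *Akt2*, *Slc2a4*, *Tbc1d1* and *Tbc1d4*, were described in the kidney and the gastrocnemius muscle of mice fed a western diet (WD) with or without cyclo(His-Pro) (CHP). They were chosen by symbol, and all 9 were found once in both tables, among 54838 rows in kidney and 55487 in gastrocnemius. CHP is a cyclic dipeptide of histidine and proline. The animals were male wild-type C57BL/6J mice that moved at 6 weeks of age to thermoneutral cabinets at 30 to 32 °C, as all groups did. From week 7 the CD group received the chow diet and water, the WD group the western diet and water, and the WD+CHP group the western diet and CHP at 20 mg/kg by gavage 3 times per week, until week 24. Tissues were taken after a fast of 3 h. The study asked whether CHP prevents steatohepatitis, and no mouse on the chow diet received CHP in these libraries. RNA-seq was given for 5 libraries per group and tissue, each from 1 mouse, 30 libraries in all.

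Insulin binds the receptor encoded by *Insr*, a tyrosine kinase that phosphorylates the adaptors IRS1 and IRS2. These recruit phosphatidylinositol 3-kinase (PI3K), whose regulatory subunit p85-alpha is encoded by *Pik3r1*, and the lipid it makes brings AKT kinases to the membrane, AKT2 being the isoform most tied to glucose uptake. In muscle and fat, AKT phosphorylates TBC1D4 (AS160) and its paralog TBC1D1, which otherwise keep the transporter GLUT4 (*Slc2a4*) inside the cell. In the kidney, insulin acts on tubule cells and podocytes, while most filtered glucose is taken back by the sodium-coupled transporter SGLT2 (*Slc5a2*). These measurements are of RNA, so the phosphorylation and protein location through which the pathway acts were not seen.

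Each kidney library held 37189192 to 38211422 counts, and each gastrocnemius library 50319024 to 53282969. The labels name frozen liver as the tissue that RNA was extracted from, so the tissues were checked by markers. The summed level of 10 proximal tubule genes was 30300 to 37900 CPM (counts scaled to library size) in the kidney libraries and 220 to 380 CPM in gastrocnemius. That of 10 fast muscle fibre genes was 185000 to 248000 CPM in gastrocnemius and 18.0 to 29.3 CPM in kidney. In whole tissue, fewer cells of a type and less RNA per cell cannot be told apart. The labels name different extraction kits for the 2 tissues, while the study's methods name the same kit for both. Each tissue was also normalised on its own, so levels set side by side across tissues carry any such difference.

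The promoters of *Irs1* and *Irs2* are shown first because FOXO factors, which AKT keeps out of the nucleus, bind insulin response elements, and E-boxes are bound by helix-loop-helix factors. Of the 9 genes, 7 were found in the RefSeq promoter table (GRCm38.p6), which did not list *Insr* or *Slc2a4*. The windows hold the 250 bases before a RefSeq transcription start, and 4 motifs were searched on both strands: the insulin response element CAAAACA, the FOXO site GTAAACA, the E-box CACGTG, and the GC box GGGCGG. Capitals mark every match. The *Irs1* window is chr1:82291440-82291689 and that of *Irs2* is chr8:11008930-11009179, both read from the minus strand, and the RefSeq start of *Irs2* lies 471 bases from the start of the gene in the GENCODE annotation.
Irs1: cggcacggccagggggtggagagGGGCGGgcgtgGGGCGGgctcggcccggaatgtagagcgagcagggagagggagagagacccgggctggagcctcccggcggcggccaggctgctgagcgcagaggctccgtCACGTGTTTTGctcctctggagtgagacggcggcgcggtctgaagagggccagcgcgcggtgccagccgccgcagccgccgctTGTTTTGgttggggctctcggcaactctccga
Irs2: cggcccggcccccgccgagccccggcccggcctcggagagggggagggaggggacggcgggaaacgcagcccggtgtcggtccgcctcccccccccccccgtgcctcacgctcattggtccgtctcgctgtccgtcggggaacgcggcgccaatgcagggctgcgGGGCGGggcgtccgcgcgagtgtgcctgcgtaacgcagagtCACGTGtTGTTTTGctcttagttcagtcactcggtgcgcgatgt
Both windows held an E-box close to an insulin response element, read as TGTTTTG on this strand. In *Irs1* the E-box began 115 bases before the start and overlapped by 2 bases an element that began at 111, with a further element at 32. In *Irs2* the E-box began 44 bases and the element 37 bases before the start. Of 32851 promoter windows, 97 (0.295%) held both motifs, against 6.02% with an E-box and 5.56% with the element. *Irs1* and *Irs2* were the members with both. The FOXO site, present in 3.17% of windows, was found in 1 of 13 member windows, at a start of *Akt1*.

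The windows of *Pik3r1* and *Tbc1d1* are shown because these genes were higher on WD in both tissues. That of *Pik3r1* is chr13:101768218-101768467, minus strand, whose start is the GENCODE gene start. That of *Tbc1d1* is chr5:64230107-64230356, plus strand, at a start inside the gene, 74052 bases from the GENCODE gene start.
Pik3r1: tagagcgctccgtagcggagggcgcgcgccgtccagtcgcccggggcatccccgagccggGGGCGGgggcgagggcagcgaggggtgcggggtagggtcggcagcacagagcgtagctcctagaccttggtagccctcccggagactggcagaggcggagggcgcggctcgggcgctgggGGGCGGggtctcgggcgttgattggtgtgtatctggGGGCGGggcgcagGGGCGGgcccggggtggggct
Tbc1d1: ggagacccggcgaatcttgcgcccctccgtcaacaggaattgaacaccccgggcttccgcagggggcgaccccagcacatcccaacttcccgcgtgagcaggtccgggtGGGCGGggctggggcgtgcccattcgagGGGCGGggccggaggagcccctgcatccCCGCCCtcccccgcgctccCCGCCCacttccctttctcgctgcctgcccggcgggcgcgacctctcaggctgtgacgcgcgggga
Each held 4 GC boxes and none of the other motifs, and the windows at the other listed start of each gene held none of the 4 motifs. The GC box was found in 32.7% of all windows and in 7 of 13 member windows, at least 1 for each of the 7 genes. A match is a description of these letters only.

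Levels of different genes were compared per kilobase of exon (FPKM), in the CD groups. *Slc2a4* reached 140 ± 5.04 FPKM in gastrocnemius and 6.59 ± 0.444 in kidney (SD, n = 5). *Akt2* reached 51.3 ± 2.01 FPKM in gastrocnemius, above *Akt1* at 15.8 ± 0.589, while in kidney *Akt1* stood at 19.6 ± 0.753 and *Akt2* at 13.2 ± 0.303. The order of the AKT isoforms per length thus differed between the tissues, while by counts not divided by length *Akt2* exceeded *Akt1* in every library of both, 1.07 to 1.24 times in kidney. *Irs1* was the lowest member in kidney, at 0.941 ± 0.176 FPKM, against 13.5 ± 8.31 for *Irs2*, whereas in gastrocnemius the 2 adaptors lay at 5.90 ± 1.05 and 7.96 ± 1.68, a gap smaller than the sum of their SDs. *Tbc1d1* exceeded *Tbc1d4* in kidney, at 12.7 ± 0.938 against 2.59 ± 0.0576 FPKM, and in gastrocnemius they stood at 7.15 ± 1.10 and 7.78 ± 1.53. *Insr* was at 8.21 ± 0.359 FPKM in kidney and 6.01 ± 0.472 in gastrocnemius, and *Pik3r1* at 4.48 ± 0.239 and 2.50 ± 0.175. In kidney the order from the top was *Akt1*, *Irs2*, *Akt2*, *Tbc1d1*, *Insr*, *Slc2a4*, *Pik3r1*, *Tbc1d4* and *Irs1*, in which *Irs2*, with its wide spread, did not differ from its neighbours beyond the SDs, nor did *Akt2* from *Tbc1d1*. In gastrocnemius *Slc2a4*, *Akt2* and *Akt1* led in that order, *Pik3r1* was last, and the SDs of the 5 genes between overlapped from each gene to the next. Among the kidney's other glucose transporters, *Slc5a2* was at 69.6 FPKM and the basolateral transporter *Slc2a2* (GLUT2) at 36.6, both above *Slc2a4*.

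**Figure D1:**
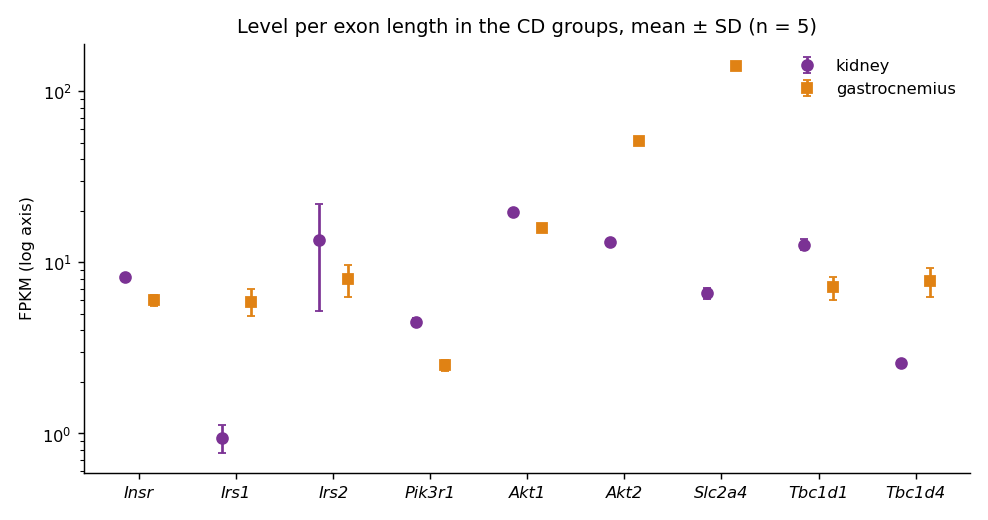
Mean level per kilobase of exon (FPKM, log axis) of the 9 genes in the CD groups of kidney (circles) and gastrocnemius (squares), with bars of 1 SD over 5 libraries. *Slc2a4* and *Akt2* stand at 140 and 51.3 FPKM in gastrocnemius and at 6.59 and 13.2 in kidney.

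The first comparison asked what the western diet did in kidney. *Pik3r1*, *Slc2a4* and *Tbc1d1* rose, *Irs2* and *Insr* fell, and *Irs1*, *Akt1*, *Akt2* and *Tbc1d4* did not pass the test. Thus 5 of 9 members were called by edgeR at an adjusted p under 0.05, 3 higher and 2 lower, where 9.65% of the 17120 genes tested were called, 4.62% higher and 5.03% lower. The median log2 fold change was -0.023 over the members and 0.001 over all genes.

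*Insr* (chromosome 8, 3122061 to 3279617, minus strand) stood at 119, 111, 106, 116 and 112 CPM in the CD libraries and at 93.1, 113, 102, 95.7 and 99.96 CPM in the WD libraries. The groups overlapped through WD replicate 2. The WD level was 0.892 times that of CD (log2 fold change -0.165 ± 0.0504 SE, edgeR adjusted p = 0.0479). This call stood at the threshold: it was lost when any of CD replicates 1, 2, 4 or 5 or WD replicates 1, 3, 4 or 5 was left out, with adjusted p of 0.0814 to 0.127, and in 5 of 10 other analyses (0.0526 to 0.102).

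*Irs2* (chromosome 8, 10984681 to 11008458, minus strand), the adaptor whose promoter is printed above, changed most. The CD libraries read 168, 106, 42.7, 51.1 and 57.6 CPM and the WD libraries 35.2, 34.2, 25.1, 25.4 and 30.2 CPM. All 5 CD libraries lay above all WD libraries, but CD replicates 1 and 2 lay far above the other 3 CD libraries. The WD level was 0.353 times that of CD (log2 fold change -1.50 ± 0.295 SE, edgeR adjusted p = 0.00483). Leaving out each library in turn gave log2 fold changes of -1.67 to -1.10 with the call kept, the smallest without CD replicate 1. *Irs1* (chromosome 1, 82233101 to 82291416, minus strand) read 6.12 to 10.6 CPM in CD and 7.85 to 10.1 CPM in WD, with a log2 fold change of 0.058 (95% interval -0.186 to 0.301).

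*Pik3r1* (chromosome 13, 101680563 to 101768217, minus strand) read 44.0, 46.6, 42.0, 48.3 and 44.6 CPM in CD and 53.0, 62.5, 54.6, 61.1 and 56.0 CPM in WD. The groups did not overlap. WD was 1.27 times CD (log2 fold change 0.35 ± 0.0515 SE, adjusted p = 0.000685), and the call held without any 1 library. The AKT genes moved little: *Akt1* (chromosome 12, 112653821 to 112674884, minus strand) had a log2 fold change of -0.023 (95% interval -0.101 to 0.056). *Akt2* (chromosome 7, 27591552 to 27640826, plus strand) had one of -0.072 (95% interval -0.149 to 0.006).

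*Slc2a4* (chromosome 11, 69942539 to 69948188, minus strand) read 22.9, 23.8, 24.8, 20.7 and 22.5 CPM in CD and 27.5, 31.2, 28.4, 32.3 and 28.6 CPM in WD. Every WD library was above every CD library. WD was 1.29 times CD (log2 fold change 0.37 ± 0.0552 SE, adjusted p = 0.000778), with the call kept without any 1 library.

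*Tbc1d1* (chromosome 5, 64156305 to 64351486, plus strand) read 101, 101, 87.3, 87.1 and 93.1 CPM in CD and 113, 111, 110, 121 and 97.4 CPM in WD. Only WD replicate 5 lay within the CD range. WD was 1.18 times CD (log2 fold change 0.23 ± 0.0621 SE, adjusted p = 0.0253), a call lost without CD replicate 3 or WD replicate 1 or 4, at adjusted p of 0.0567 to 0.0614, and with the replicate block (0.0513) or adipocyte markers in the fit (0.0581). An antisense gene, *Gm15823*, overlaps *Tbc1d1* and had 2856 kidney reads beside 58669 for *Tbc1d1*. The strand setting of the counting is not given in the sources used here, so reads of the pair cannot be told apart. *Tbc1d4* (chromosome 14, 101442360 to 101609191, minus strand) read 19.5 to 20.6 CPM in CD and 16.0 to 19.8 CPM in WD, with a log2 fold change of -0.108 (95% interval -0.216 to 0.001).

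**Figure D2:**
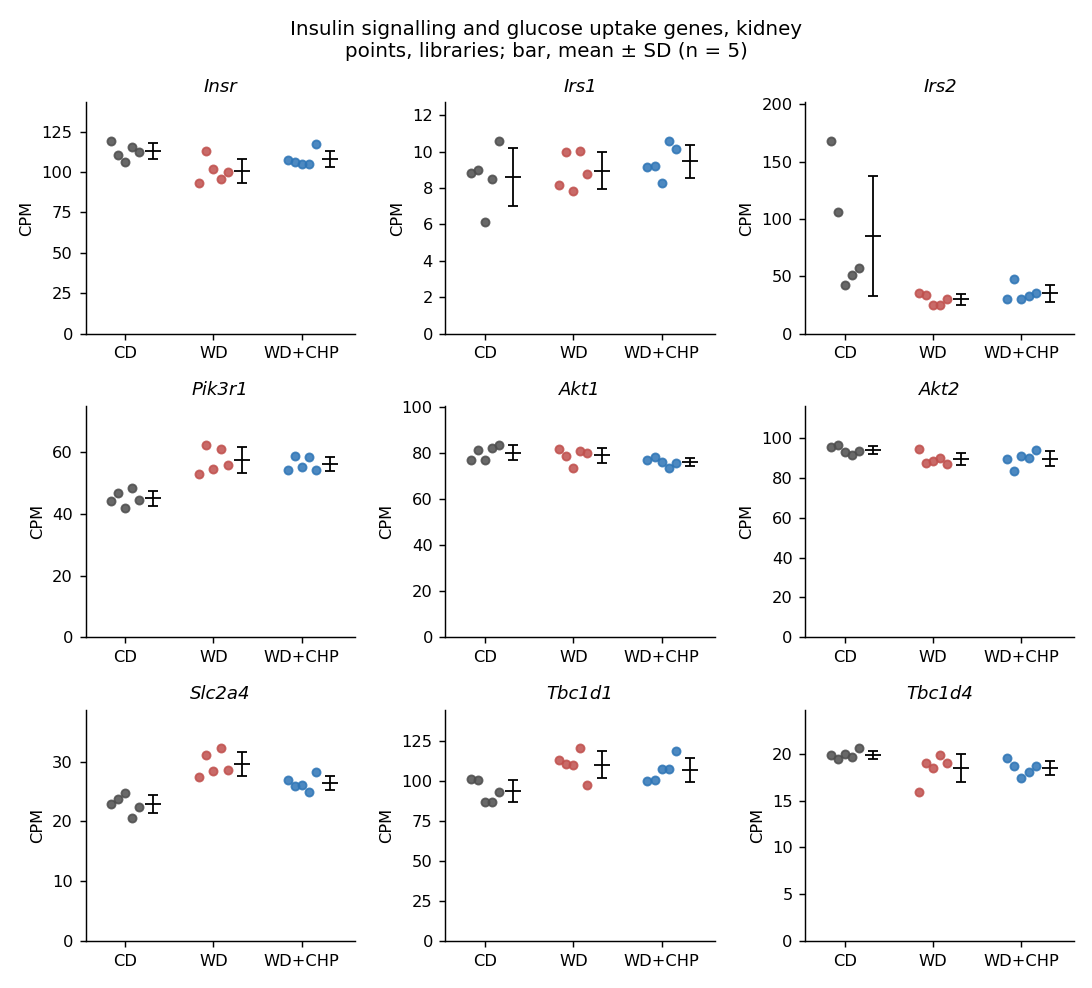
Level of the 9 genes in kidney, in CPM, each point a library of the CD, WD or WD+CHP group and each bar the mean ± SD (n = 5). *Irs2* spans 42.7 to 168 CPM in CD and 25.1 to 35.2 CPM in WD, and *Pik3r1* and *Slc2a4* show no overlap between CD and WD.

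CHP on the western diet was then compared with water in kidney. By edgeR, 0 of 9 members were called in WD+CHP vs. WD, 1 had an unadjusted p under 0.05 (as did 11.4% of all genes), and DESeq2 and limma-voom also called 0. Few genes were called at all, 0.105% of those tested. That 1 member was *Slc2a4*, which read 26.9, 25.9, 26.2, 25.0 and 28.3 CPM in WD+CHP, 4 of them below every WD library. Its log2 fold change was -0.162 (95% interval -0.279 to -0.046, edgeR adjusted p = 0.262). *Irs2* read 30.4, 47.7, 30.2, 32.5 and 35.8 CPM in WD+CHP, with a log2 fold change of 0.23 against WD and a wide 95% interval of -0.388 to 0.857. *Insr* read 105 to 117 CPM and had a log2 fold change of 0.10 (95% interval -0.004 to 0.209). The proximal tubule sum moved the same way, from 30300 to 33700 CPM in WD (median 32100) to 33100 to 37900 CPM in WD+CHP (median 35900). Of its 10 genes, 0 were called by edgeR and 4 had an unadjusted p under 0.05. Their median log2 fold change was 0.009, and the part of this list was not tested. The 6 other members had log2 fold changes between -0.054 and 0.079.

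Against CD, the WD+CHP kidneys were called for 3 of 9 members, 2 higher and 1 lower, beside 12.1% of all genes (6.25% higher, 5.84% lower). This comparison shares its CD libraries with WD vs. CD and its WD+CHP libraries with WD+CHP vs. WD. *Irs2* was 0.415 times the CD level (log2 fold change -1.27 ± 0.293 SE, adjusted p = 0.0107), *Pik3r1* 1.24 times (adjusted p = 0.00145) and *Slc2a4* 1.15 times (adjusted p = 0.0239, and 0.0502 without WD+CHP replicate 5). *Tbc1d1* was 1.14 times the CD level and missed the threshold (adjusted p = 0.0561), but passed without CD replicate 1 or 2 or WD+CHP replicate 1 (0.04 to 0.0422). Under scaling by total count only, calls over all genes went from 1070 higher and 1000 lower to 660 and 1814, and *Slc2a4* lost its call (adjusted p = 0.0832) while *Akt2* gained one (adjusted p = 0.0388, lower).

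In gastrocnemius on the western diet *Tbc1d1* and *Pik3r1* rose, as they did in kidney, *Akt1*, *Akt2* and *Slc2a4* fell, and *Insr*, *Irs1*, *Irs2* and *Tbc1d4* did not pass the test. In WD vs. CD, 5 of 9 members were called, 2 higher and 3 lower, beside 8.63% of the 15419 genes tested (4.67% higher, 3.96% lower). The median log2 fold change was 0.015 over the members and 0.001 over all genes. Under scaling by total count only, calls over all genes went from 720 higher and 610 lower to 1506 and 346, and 3 of 9 members were called, *Akt1* (adjusted p = 0.111) and *Slc2a4* (adjusted p = 0.144) losing theirs.

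Adipocyte markers moved with these groups. Of 8 adipocyte genes, 4 rose in WD vs. CD (*Lep*, *Cidec*, *Plin1* and *Adipoq*) and 1 fell (*Cfd*), and the same 4 fell in WD+CHP vs. WD. Their summed level was 116 to 188 CPM in CD, 172 to 221 in WD and 101 to 166 in WD+CHP, with all 8 genes above 0. When the mean of these markers was added to the fit, 0 of 9 members were called in WD vs. CD, 2 had an unadjusted p under 0.05 (9.21% of all genes did), and 2 genes were called in all. The log2 fold changes in that fit were 0.94 for *Tbc1d1*, 0.33 for *Pik3r1*, -0.144 for *Akt1*, -0.105 for *Akt2* and -0.300 for *Slc2a4*. The marker level and the diet group move together and cannot be told apart here. The 10 fast fibre genes summed to 208000 to 248000 CPM in CD and 185000 to 216000 CPM in WD, 1 of them called (*Ckm*, lower). WD+CHP libraries had sums of 189000 to 223000 CPM (median 204000), where the CD median was 242000 and the WD median 205000. The 7 slow fibre genes summed to 572 to 1590 CPM in CD, 776 to 2820 CPM in WD and 936 to 1570 CPM in WD+CHP. In WD vs. CD 0 of them were called by edgeR. The median log2 fold change there was 0.549 for the slow fibre genes and -0.192 for the fast fibre genes. The part of fibre content in the results was not tested.

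Some gastrocnemius libraries stood apart over all genes. By chi-square per gene, WD replicate 5 differed from the other WD libraries by 36.7 to 74.6, and those from each other by 15.9 to 38.8. CD replicates 1 and 2 differed from CD replicates 3, 4 and 5 by 32.7 to 50.6, and CD pairs within these sets by 13.7 to 17.0. WD replicate 5 was also the WD library nearest to CD for *Pik3r1*, *Slc2a4* and *Tbc1d1*. Without it, 5 of 9 members were called in WD vs. CD, beside 7.93% of all genes, with log2 fold changes of 0.50 for *Pik3r1*, -0.273 for *Slc2a4*, 0.80 for *Tbc1d1*, -0.24 for *Akt2* and -0.17 for *Akt1* (edgeR adjusted p of 0.000429 to 0.0468). In WD+CHP vs. WD without it, 0 were called by edgeR and 4 had an unadjusted p under 0.05, beside 14.8% of all genes.

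*Tbc1d1*, the Rab GTPase-activating protein abundant in fast muscle, read 55.3, 54.0, 51.3, 63.3 and 40.7 CPM in CD and 101, 95.8, 96.7, 73.6 and 71.7 CPM in WD. The groups did not overlap. WD was 1.66 times CD (log2 fold change 0.73 ± 0.11 SE, adjusted p = 0.000674), and the call held without any 1 library. With the adipocyte markers in the fit its adjusted p was 0.168. Its paralog *Tbc1d4* read 49.1 to 73.3 CPM in CD and 55.9 to 75.5 CPM in WD, with a log2 fold change of 0.12 (95% interval -0.117 to 0.361).

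*Akt2* read 350, 357, 362, 386 and 374 CPM in CD and 298, 308, 305, 327 and 296 CPM in WD. The groups were apart, and WD was 0.839 times CD (log2 fold change -0.25 ± 0.0469 SE, adjusted p = 0.0031). *Akt1* read 62.9, 64.1, 69.0, 63.6 and 64.8 CPM in CD and 56.0, 63.4, 58.6, 52.8 and 51.0 CPM in WD. WD replicate 2 lay just inside the CD range, and WD was 0.868 times CD (adjusted p = 0.023). The *Akt2* call held without any 1 library, and that of *Akt1* was lost without CD replicate 3 or WD replicate 4, at adjusted p of 0.0538 and 0.0617.

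*Slc2a4*, the insulin-regulated transporter, read 472, 486, 497, 512 and 471 CPM in CD and 378, 394, 412, 429 and 469 CPM in WD. WD replicate 5 lay just below the lowest CD library and the others further down. WD was 0.855 times CD (log2 fold change -0.23 ± 0.0612 SE, adjusted p = 0.0298). Leaving out CD replicate 3 or 4, or any of WD replicates 1, 2 and 3, ended the call, at adjusted p of 0.0597 to 0.0756.

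*Pik3r1* read 23.9, 27.3, 27.0, 23.9 and 24.1 CPM in CD and 40.0, 39.4, 35.3, 28.0 and 25.5 CPM in WD. The WD libraries were spread, 4 of them above every CD library. WD was 1.33 times CD (log2 fold change 0.41 ± 0.115 SE, adjusted p = 0.0342), and 6 libraries each ended the call when left out (CD replicates 1, 4 and 5, WD replicates 1, 2 and 3), at adjusted p of 0.0712 to 0.0901.

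The adaptors and the receptor did not pass. *Irs2* read 44.3, 40.5, 61.1, 43.0 and 62.7 CPM in CD and 41.0, 34.8, 39.4, 30.0 and 39.0 CPM in WD. WD replicate 1 alone lay above the lowest CD library, and the log2 fold change was -0.45 ± 0.188 SE (95% interval -0.848 to -0.053, edgeR adjusted p = 0.151). *Irs1* had a log2 fold change of 0.12 (95% interval -0.342 to 0.575) and *Insr* one of 0.015 (95% interval -0.135 to 0.164). *Insr* in WD replicate 1 stood at 101 CPM, beside 77.5 to 82.5 CPM in the other WD libraries.

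**Figure D3:**
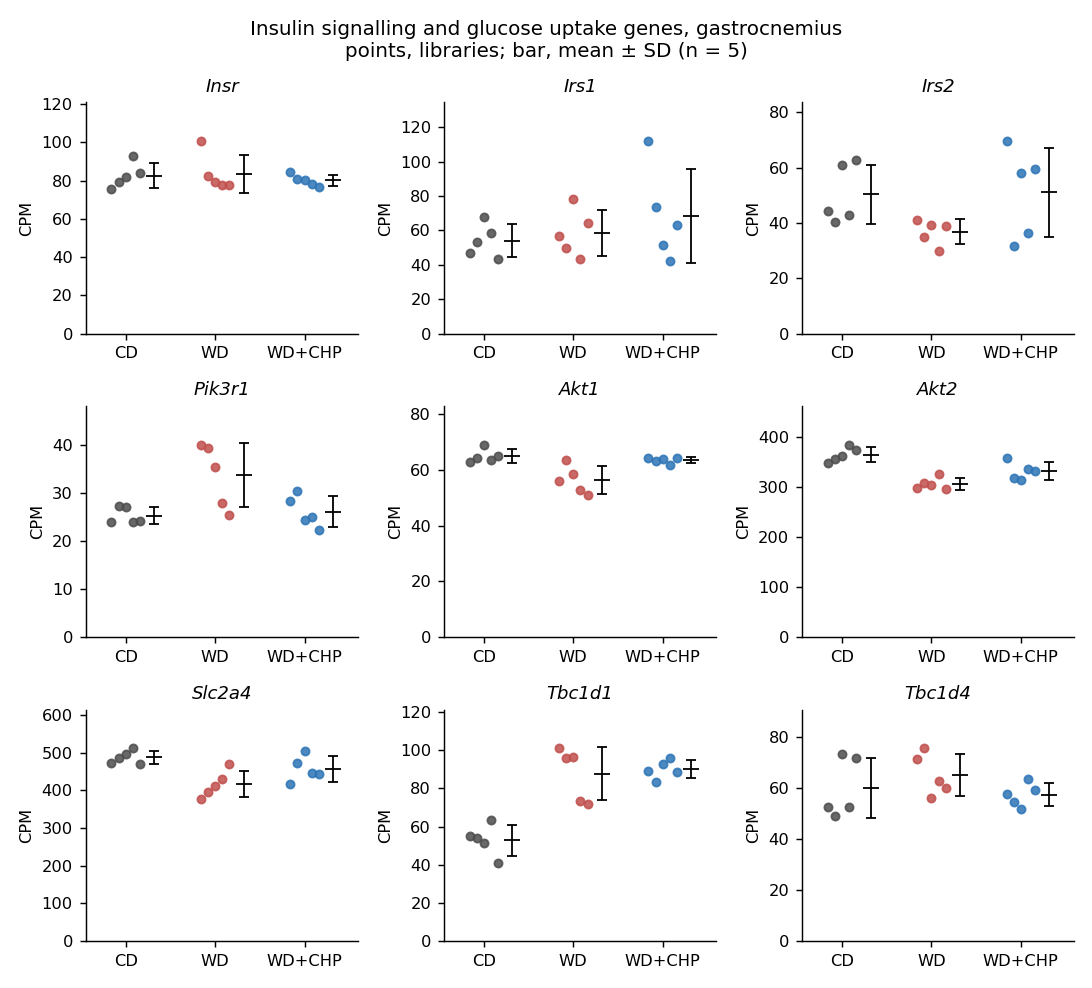
Level of the 9 genes in gastrocnemius, in CPM, each point a library of the CD, WD or WD+CHP group and each bar the mean ± SD (n = 5). *Tbc1d1* spans 40.7 to 63.3 CPM in CD, 71.7 to 101 in WD and 83.3 to 96.0 in WD+CHP.

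With CHP in gastrocnemius, 0 of 9 members were called in WD+CHP vs. WD by edgeR, beside 0.409% of all genes, and DESeq2 and limma-voom also called 0. Of the members 5 had an unadjusted p under 0.05, as did 12.5% of all genes. *Pik3r1* read 28.3, 30.3, 24.4, 25.0 and 22.2 CPM in WD+CHP, with a log2 fold change of -0.37 (95% interval -0.612 to -0.124, adjusted p = 0.192 by edgeR). *Akt1* read 61.6 to 64.4 CPM, with 3 libraries above every WD library and a log2 fold change of 0.17 (95% interval 0.060 to 0.282, adjusted p = 0.182). *Irs2* read 69.6, 31.8, 57.9, 36.6 and 59.3 CPM, and 3 of these libraries lay above every WD library. Its log2 fold change was 0.47 (95% interval 0.074 to 0.869, adjusted p = 0.309). *Akt2* had a log2 fold change of 0.11 (95% interval 0.015 to 0.213) and *Slc2a4* one of 0.13 (95% interval 0.003 to 0.262). *Irs1* in WD+CHP replicate 1 stood at 112 CPM, and the other 4 read 42.0 to 73.5. *Tbc1d1* read 83.3 to 96.0 CPM, within the range of the WD libraries, with a log2 fold change of 0.036 (95% interval -0.194 to 0.266). With the adipocyte markers in the fit, 0 of 9 members had an unadjusted p under 0.05 in WD+CHP vs. WD, beside 7.56% of all genes. Scaling by total count took the calls over all genes from 10 higher and 53 lower to 0 and 54.

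Against CD, 1 of 9 members was called in the WD+CHP gastrocnemius, beside 9.40% of all genes (4.85% higher, 4.55% lower), again with libraries shared with the other comparisons. This was *Tbc1d1*, which was 1.70 times the CD level (log2 fold change 0.77 ± 0.11 SE, adjusted p = 0.000741) and called without any 1 library. Between these 2 groups the adipocyte sums overlapped, 1 of the 8 markers was higher (*Lep*) and 1 lower (*Cfd*), and *Tbc1d1* was called with the adipocyte markers in the fit too. The fast fibre sums, given above, were lower in WD+CHP than in CD by their medians, as in WD, with 0 of 10 genes called by edgeR and 4 at an unadjusted p under 0.05, and their part was not tested. *Akt2* was 0.908 times the CD level (edgeR adjusted p = 0.0739). It passed in DESeq2 (adjusted p = 0.0397), with the adipocyte markers in the edgeR fit (0.0466) and without WD+CHP replicate 1 (0.034). *Irs1* had a log2 fold change of 0.34, which was 0.093 without WD+CHP replicate 1. The other members had log2 fold changes from -0.094 to 0.047.

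**Figure D4:**
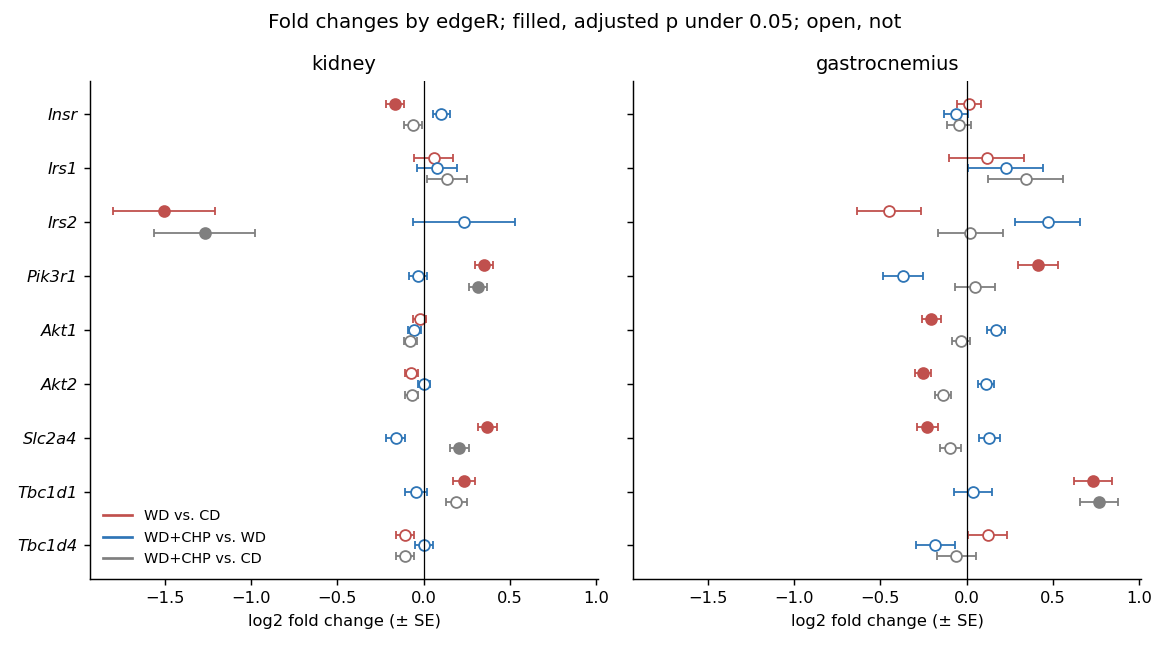
Log2 fold changes of the 9 genes with bars of 1 SE, from edgeR, in kidney (left) and gastrocnemius (right), for WD vs. CD (red), WD+CHP vs. WD (blue) and WD+CHP vs. CD (grey); filled points passed an adjusted p of 0.05. No blue point is filled, and *Slc2a4* in WD vs. CD lies at 0.37 in kidney and -0.23 in gastrocnemius.

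Whether the diet response differed between the tissues was tested directly, as gastrocnemius minus kidney in 1 fit over 30 libraries. The study lists fewer mice than these libraries, so some mice gave both tissues, but which is not given, and the fit took all libraries as independent. For WD vs. CD, 2 of 9 members were called, beside 4.13% of all genes. *Slc2a4* went up in kidney and down in gastrocnemius, a difference of -0.596 ± 0.0846 SE on the log2 scale (edgeR adjusted p = 7.49e-05). *Tbc1d1* rose in both and more in gastrocnemius, by 0.49 ± 0.137 SE (adjusted p = 0.0362). The rise of *Pik3r1* differed by 0.066 ± 0.133 SE (adjusted p = 0.871). *Irs2* fell by 1.50 in kidney and had -0.45 in gastrocnemius, a difference of 1.05 ± 0.368 SE that did not pass (adjusted p = 0.107). For WD+CHP vs. WD, 0 of 9 members were called by edgeR and by limma-voom, 3 had an unadjusted p under 0.05 (11.8% of all genes did), and 0.347% of all genes were called. Those 3 were *Akt1*, *Slc2a4* and *Pik3r1*, with differences of 0.23, 0.30 and -0.328.

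Ratios between paralogs within a library do not depend on how libraries are scaled. Over 18 exact permutation tests of 5 against 5, two-sided, the smallest p possible was 0.00794. In kidney the ratio of *Irs2* to *Irs1* counts was 19.0, 11.8, 6.97, 5.99 and 5.44 in CD and 4.32, 3.43, 3.19, 2.52 and 3.43 in WD. WD lay below CD throughout, at 0.381 times its ratio (exact permutation p = 0.00794, adjusted p = 0.0357), and WD+CHP at 0.422 times (exact permutation p = 0.00794, adjusted p = 0.0357). In gastrocnemius the same ratio was 0.688 times that of CD on WD (exact permutation p = 0.00794, adjusted p = 0.0357), with 0.503 to 0.724 in WD and 0.734 to 1.45 in CD. The ratio of *Tbc1d4* to *Tbc1d1* in gastrocnemius was 0.827 to 1.76 in CD, 0.579 to 0.849 in WD and 0.557 to 0.665 in WD+CHP. It was 0.566 times the CD ratio in WD+CHP (exact permutation adjusted p = 0.0357) and 0.662 times in WD (adjusted p = 0.0612). In kidney it was 0.787 times on WD and 0.814 times on WD+CHP (both with exact permutation p = 0.0159, adjusted p = 0.0476). The ratio of *Akt2* to *Akt1* passed in none of its 6 tests, with exact permutation p of 0.0635 to 0.913, and none of the 3 ratios passed in WD+CHP vs. WD in either tissue with all libraries. With 4 against 5 libraries several of these p-values fall past the threshold: the *Irs2* to *Irs1* ratio on WD was lost in kidney without WD replicate 1 (adjusted p = 0.0571) and in gastrocnemius without any 1 WD library (0.0714 to 0.102). That of *Irs2* to *Irs1* for WD+CHP vs. CD in kidney was lost when CD replicate 1, or any WD+CHP library but replicate 2, was left out (0.0571 to 0.0612). The kidney *Tbc1d4* to *Tbc1d1* ratio was lost on WD when WD replicate 1, or any CD library but replicate 2, was left out (0.0612 to 0.0816), and for WD+CHP vs. CD when any CD library but replicate 2, or any of WD+CHP replicates 3, 4 and 5, was (0.0612 to 0.102). The gastrocnemius *Tbc1d4* to *Tbc1d1* ratio passed for WD vs. CD without CD replicate 4 (exact permutation adjusted p = 0.0286) and for WD+CHP vs. WD without WD replicate 3 (0.0357).

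**Figure D5:**
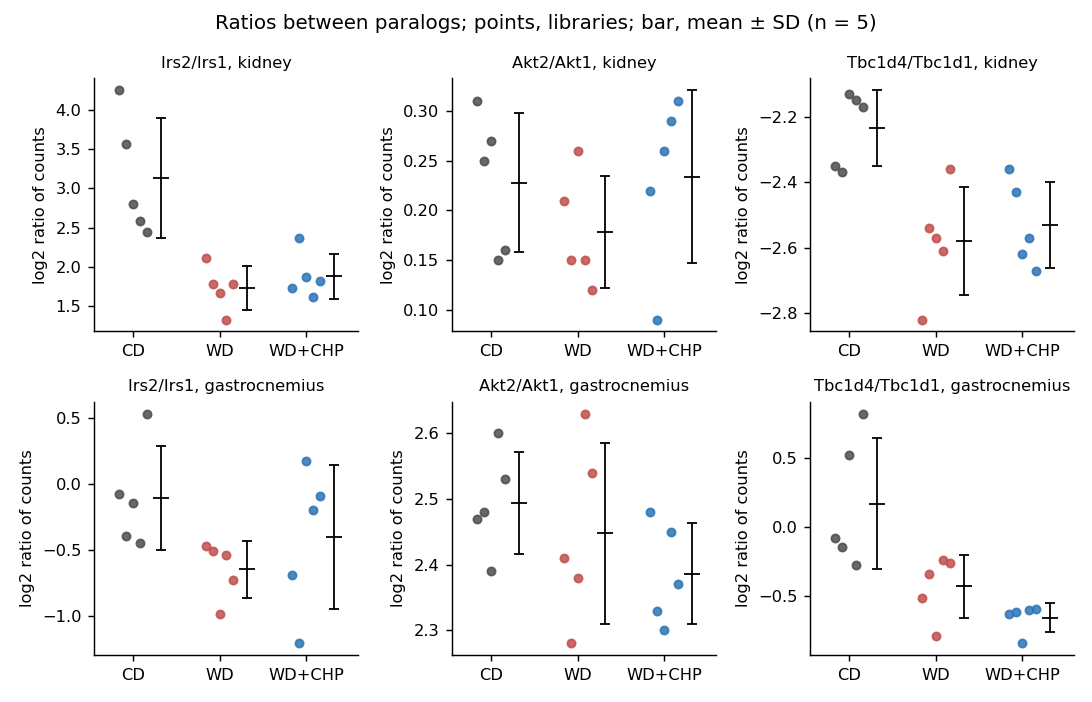
Log2 ratios of raw counts (pseudocount 0.5) between *Irs2* and *Irs1*, *Akt2* and *Akt1*, and *Tbc1d4* and *Tbc1d1*, each point a library and each bar the mean ± SD (n = 5), with the axis set for each panel. The kidney *Irs2*/*Irs1* ratio averages 3.13 in CD and 1.73 in WD on this log2 scale.

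A further 78 genes of the pathway were counted from 8 lists, of which 77 were tested in kidney and 74 in gastrocnemius. In kidney WD vs. CD, 4 rose, 3 fell and 70 did not pass, 7 of 77 beside 9.65% of all genes. Their median log2 fold change was 0.009. The rises were *Pik3r3*, another PI3K regulatory subunit (1.25 times CD, adjusted p = 0.00959), *Prkag3*, an AMPK gamma subunit known from muscle (2.27 times, from 4.87 ± 0.666 to 11.1 ± 1.32 CPM, adjusted p = 0.000226), and the transporters *Slc5a2* (1.32 times, adjusted p = 0.00465) and *Slc2a5*, the fructose transporter GLUT5 (1.39 times, adjusted p = 0.0169). The falls were *Foxo4*, a FOXO transcription factor (0.867 times, adjusted p = 0.00879), *Igf1r*, the receptor of IGF-1 (0.868 times, adjusted p = 0.0233), and *Prkab1*, an AMPK beta subunit. *Igf1r* lost its call when CD replicate 1 or 5, or any of WD replicates 3, 4 and 5, was left out, at adjusted p of 0.0535 to 0.0719. None of the 14 AKT, mTOR and GSK3 genes, the 13 inhibitors of the pathway and the 15 genes of GLUT4 vesicle traffic was called. The sums of other marker lists moved with these groups. Of 10 proximal tubule markers, 2 rose (*Slc5a2* and *Miox*) and 2 fell (*Cubn* and *Kap*), with a median log2 fold change of 0.02. Their sums were 33700 to 37300 CPM in CD and 30300 to 33700 in WD. The fast fibre genes, low in kidney and with *Myh2* and *Myh4* at 0, summed to 18.0 to 19.7 CPM in CD, 22.7 to 29.3 CPM in WD and 22.4 to 28.8 CPM in the WD+CHP kidneys, so that CD lay below both others, as it did for *Slc2a4*. Of the 4 of them tested, 1 rose on WD (*Pvalb*). Their median log2 fold change was -0.009 in WD vs. CD and -0.105 in WD+CHP vs. CD. The part of either list in the changes of *Prkag3*, *Slc2a4* or any other gene was not tested.

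In kidney WD+CHP vs. WD, 1 of 77 pathway genes was called, beside 0.105% of all genes. *Rictor*, the defining subunit of the mTORC2 complex that phosphorylates AKT, was 1.25 times the WD level (log2 fold change 0.32 ± 0.0538 SE, adjusted p = 0.0271), at 30.7 ± 2.06 CPM against 24.6 ± 1.58. Leaving out WD replicate 1, 4 or 5, or any of WD+CHP replicates 2, 3 and 4, ended the call (adjusted p of 0.0907 to 0.106), as did fits with the transcript length and GC content correction (0.101) and with only those groups (0.0779). Against CD, 8 rose and 6 fell, beside 6.25% of all genes higher and 5.84% lower, the 6 of smallest p being *Prkag3* (2.17 times), *Foxo4* (0.858 times), *Prkaa2*, an AMPK catalytic subunit (1.18 times), *Rictor* (1.19 times), *Slc2a8* (GLUT8, 0.809 times) and *Inpp5k*, an inositol phosphatase (0.857 times), with edgeR adjusted p of 0.000537 to 0.0119.

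In gastrocnemius WD vs. CD, 3 pathway genes rose, 6 fell and 65 did not pass, 9 of 74 beside 8.63% of all genes, with a median log2 fold change of 0.003. *Pik3r3* rose (1.30 times, adjusted p = 0.00823), as in kidney. The PI3K catalytic subunit gene *Pik3cd* fell (0.661 times, 27.4 ± 2.77 to 18.1 ± 2.71 CPM, adjusted p = 0.000843). *Exoc7*, a subunit of the exocyst that tethers GLUT4 vesicles, fell (0.736 times, 95.5 ± 6.53 to 70.2 ± 7.27 CPM, adjusted p = 0.000867). *Prkag2*, an AMPK gamma subunit, was 0.709 times CD (adjusted p = 0.00965) and the adaptor gene *Gab1* 0.745 times (adjusted p = 0.0138). Other calls were *Prkaa1*, higher, and *Phlpp1* and *Slc2a12*, lower. With the adipocyte markers in the fit, 0 of 74 were called by edgeR and 10 had an unadjusted p under 0.05. The log2 fold changes in that fit, beside those without the markers, were -0.651 and -0.598 for *Pik3cd*, 0.45 and 0.38 for *Pik3r3*, -0.426 and -0.495 for *Prkag2*, -0.257 and -0.443 for *Exoc7*, and -0.214 and -0.425 for *Gab1*.

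In gastrocnemius WD+CHP vs. WD, 0 of 74 pathway genes were called by edgeR, DESeq2 and limma-voom, beside 0.409% of all genes in edgeR, and 15 had an unadjusted p under 0.05, beside 12.5% of all genes. The smallest p were those of *Cbl*, a ubiquitin ligase (log2 fold change -0.288, adjusted p = 0.165), and *Gys1*, muscle glycogen synthase (0.16, adjusted p = 0.23). Against CD, 3 rose and 8 fell, beside 4.85% of all genes higher and 4.55% lower. *Gab1* (0.673 times), *Igf1r* (0.771 times), *Exoc7* and *Sort1*, a sorting receptor of GLUT4 vesicles (both 0.822 times), were lower, and *Grb14*, which inhibits the insulin receptor (1.57 times), and *Inppl1*, the phosphatase SHIP2 (1.14 times), were higher, with edgeR adjusted p of 0.00242 to 0.0195. *Grb14* was lost without WD+CHP replicate 3 (0.0504) and *Sort1* with replicate 3 or 5 of CD, or the same numbers of WD+CHP, left out (0.0517 to 0.0588).

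The genes whose log2 CPM most resembled each called member over the 15 libraries of a tissue were listed as a description, since these libraries share the diet groups and were scaled together. The 3 genes most like *Akt2* in gastrocnemius were *Leo1* (Pearson r = 0.958), *Ybx3* (0.947) and *Stab2* (0.945). For *Tbc1d1* there they were *Stau2* (0.937), *Socs5* (0.931) and *Dnajb4* (0.928). *Slc2a4* was most like the clock-linked repressor gene *Bhlhe41* (0.918), then 2 muscle genes, *Apobec2* (0.854) and *Eno3*, muscle enolase (0.824). *Pik3r1* was most like *Smc6* (0.898), *Csnk1g3* (0.895) and *Septin7* (0.885), and *Akt1* most like *Xpc* (0.864), *Uvrag* (0.863) and *Ciz1* (0.854). In kidney, *Irs2* was most like *Mylip* (0.918), which encodes a ligase for the LDL receptor, *Jade2* (0.904) and *Gas1* (0.897). *Slc2a4* was most like *Aif1l* (0.907), the actin gene *Actg1* (0.906) and the pyruvate dehydrogenase kinase gene *Pdk1* (0.903). *Insr* was most like *Rmnd5a* (0.905) and *Cubn* (0.881), 1 of the proximal tubule markers. *Tbc1d1* was most like *Dtnbp1* (0.905), *Mettl1* (0.904) and *Mansc4* (0.894), and *Pik3r1* most like *Plekho1* (0.899), *Vamp3* (0.897) and *Cadps2* (0.895).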

How the data were processed

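The authors extracted RNA from frozen tissue of each mouse, selected polyA RNA and sequenced it on the BGISEQ-500, cleaned the reads and aligned them with STAR (2.7.3a, GRCm38/mm10 per the submitters' processing notes). The authors deposited unnormalised counts of reads per gene. The counting tool and strand setting are not given in the sources used here.

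The tests used edgeR 4.0.16 in R 4.3.3 (filterByExpr with a minimum count of 10, TMM, 3 groups in 1 quasi-likelihood fit per tissue, two-sided F test, Benjamini-Hochberg over all genes kept, threshold 0.05). CPM used TMM-scaled library sizes and log2 CPM a prior count of 2. FPKM was CPM per kilobase of merged exons in GENCODE M21. The SE is the size of the log2 fold change over the root of F, and 95% intervals follow from its degrees of freedom. Alternatives were DESeq2 1.42.0, limma 3.58.1 (voom), other scalings, filters and sample sets, a replicate block and leaving out each library, and, added after seeing the data, adjustment for transcript length and GC share and the adipocyte marker mean as a covariate. Scripts were tested on simulated counts. Some mice gave both tissues, since the study lists fewer mice than libraries, but the sources do not say which, so the test between tissues took libraries as independent. The members and lists were chosen with earlier results of these data known. All 9 members were named, as were other pathway genes past the threshold, up to the 6 of smallest p per comparison (2 where none passed; other calls in a count of 5 or fewer were named after their values were seen), and the 3 genes most like each called member by Pearson r, among genes with a mean log2 CPM of at least 3. The values of 2 genes that the rule named are not reported here. Within a tissue, same-numbered libraries of different groups did not deviate together (r over 0.1 in 9 of 30 pairs), so the main fits had no replicate block. Those libraries come from different mice. No such check was made between tissues, so it cannot tell which mice gave both. Libraries of a group differed by more than counting error, with chi-square of 8.82 to 74.6 per gene.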

Additional observations from a re-analysis of the deposited data

Results flagged for a closer look

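Over 54 groups of 5 libraries (9 genes, 3 groups and 2 tissues), 2 held a library whose gap to the next, over the group's range, passed Dixon's 95% critical value, and about 1 in 20 groups would by chance. *Insr* in kidney WD+CHP replicate 5 was at 117.2 CPM, above the 4 others of its group. *Insr* in gastrocnemius WD replicate 1 was at 100.7 CPM, above the 4 others of its group.

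The response to the western diet differed between tissues for 2 members by the interaction test. The gastrocnemius minus kidney difference was -0.596 for *Slc2a4* (adjusted p = 7.49e-05 by edgeR), which was higher on WD in 5 of 5 kidneys and lower in 5 of 5 muscles than every CD library. In gastrocnemius the gap was narrow, with WD replicate 5 at 468.7 CPM and CD replicate 5 at 470.6 CPM. The *Slc2a4* call in gastrocnemius was lost with total count scaling (edgeR adjusted p = 0.144). The difference was 0.494 for *Tbc1d1* (adjusted p = 0.0362 by edgeR), higher than CD in both tissues.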

How the results depend on the processing

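Of the 10 member calls on the western diet, *Irs2*, *Pik3r1* and *Slc2a4* in kidney held under all 10 alternatives and every left-out library, and *Akt2* and *Tbc1d1* in gastrocnemius under all but the adipocyte covariate. The cause of each change below was not tested unless the alternative itself removes genes or libraries. In kidney the members called on WD numbered 3 in place of 5 with the adipocyte covariate, and in gastrocnemius 3 with total count scaling, 3 with only the groups compared and 0 with the adipocyte covariate. For WD+CHP vs. CD in gastrocnemius they numbered 2 in place of 1 with DESeq2 and 2 with the adipocyte covariate. *Tbc1d1* in kidney WD+CHP vs. CD passed with DESeq2 (adjusted p = 0.0306), with at least 10 counts in every library (0.0494) and with the length and GC correction (0.0496). The other pathway genes called in kidney WD vs. CD were 12 with DESeq2 and 11 with the length and GC correction, against 7. In kidney WD+CHP vs. WD they were 2 with DESeq2, 0 with only the groups compared and 0 with the length and GC correction, against 1. In gastrocnemius WD vs. CD they were 16 with total count scaling and 0 with the adipocyte covariate, against 9. Over all genes, kidney WD+CHP vs. WD had 18 calls, against 194 with DESeq2, 37 without the low-count filter, 0 with only the groups compared, 0 with the length and GC correction and 11 with the adipocyte covariate. Gastrocnemius WD+CHP vs. WD had 63, against 249, 40 without the filter and 0 with the adipocyte covariate, and WD vs. CD had 1330, against 2 with that covariate.

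Signs of log2 fold changes turned only for values that did not pass. With total count scaling these were, for WD+CHP vs. WD, *Akt2* (-0.03) and *Tbc1d4* (-0.032) in kidney and *Tbc1d1* (-0.006) in gastrocnemius. With the length and GC correction they were *Akt1* (0.018) and *Tbc1d4* (-0.009) in kidney WD+CHP vs. WD, and *Insr* in gastrocnemius WD+CHP vs. WD (0.014) and vs. CD (0.04). With limma-voom it was *Irs2* in gastrocnemius WD+CHP vs. CD (-0.017). With the adipocyte covariate they were *Tbc1d4* in kidney WD+CHP vs. WD (-0.009), *Irs2* in gastrocnemius WD vs. CD (0.278) and WD+CHP vs. CD (-0.03), and *Irs1* (-0.333), *Irs2* (-0.308), *Akt2* (-0.034) and *Tbc1d1* (-0.176) in gastrocnemius WD+CHP vs. WD. For *Insr*, the tissue difference on WD passed with total count scaling (0.27, adjusted p = 0.0415).

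Same-numbered libraries share only a number. With the replicate number as a block, 3 members were called in kidney WD vs. CD (*Insr* 0.0688 and *Tbc1d1* 0.0513 not), 70 genes were called in kidney WD+CHP vs. WD, and *Irs2* in gastrocnemius WD+CHP vs. CD turned to -0.011. In the tissue difference on WD it called the same 2 members, with -0.597 for *Slc2a4* and 0.499 for *Tbc1d1*. No block was fitted to the ratios.

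Leaving out 1 library at a time gave, for members called, 3 to 5 in kidney WD vs. CD, 3 to 5 in gastrocnemius WD vs. CD and 1 to 2 in gastrocnemius WD+CHP vs. CD. For other pathway genes it gave 0 to 2 in kidney WD+CHP vs. WD, 5 to 9 in gastrocnemius WD vs. CD and 5 to 11 in gastrocnemius WD+CHP vs. CD. Over all genes it gave 0 to 97 in kidney WD+CHP vs. WD, 1202 to 2150 in kidney WD+CHP vs. CD, 12 to 92 in gastrocnemius WD+CHP vs. WD and 873 to 1617 in gastrocnemius WD+CHP vs. CD. Log2 fold changes that changed sign lay, in kidney WD vs. CD, between -0.037 and 0.148 for *Irs1* and -0.035 and 0.004 for *Akt1*. In kidney WD+CHP vs. WD they lay between -0.056 and 0.005 for *Pik3r1*, -0.014 and 0.03 for *Akt2*, and -0.043 and 0.031 for *Tbc1d4*. In gastrocnemius WD vs. CD they lay between -0.062 and 0.063 for *Insr* and -0.01 and 0.21 for *Irs1*. In gastrocnemius WD+CHP vs. WD they lay between -0.086 and 0.016 for *Insr*, -0.024 and 0.359 for *Irs1*, and -0.028 and 0.092 for *Tbc1d1*. In gastrocnemius WD+CHP vs. CD they lay between -0.075 and 0.007 for *Insr*, -0.117 and 0.151 for *Irs2*, -0.014 and 0.099 for *Pik3r1*, and -0.117 and 0.023 for *Tbc1d4*. The kidney log2 ratio of *Akt2* to *Akt1* in WD+CHP vs. CD lay between -0.013 and 0.042, and that of *Tbc1d4* to *Tbc1d1* in WD+CHP vs. WD between -0.013 and 0.104.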
